A study of Mus musculus with 7 samples.

Results

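The genes described here encode RAGE, the receptor for advanced glycation end products (Ager), and ligands or relatives of its ligands: the high mobility group box genes Hmgb1, Hmgb2 and Hmgb3, and the S100 genes S100b, S100a4, S100a6, S100a10, S100a11 and S100a13. They were taken by symbol, as 10 of the 23725 Entrez gene IDs in the count files; 8 of the 10 had at least 1 count in some library, and 3 had enough counts to be tested. The libraries came from osteoblasts of mice on a C57BL/6 background, which carry alleles that respond to Cre recombinase, among them p53Flox/Flox, a p53 gene that Cre removes, and GFP under the osteocalcin promoter. Tumor-bearing mice (n = 4) had received adenovirus with Cre into the airways 14 weeks before, and tumor-free mice (n = 3) carried the same alleles; the labels do not say whether the latter were given any other agent. All were males of 31 weeks, apart from 1 mouse of 23 weeks in each group (replicate 4 with and replicate 3 without a tumor). Each library held transcript 3′ ends of 2000 GFP-positive cells from 1 mouse, negative for leukocyte, endothelial and erythroid surface markers, sorted from bone digest mixed with lineage-depleted marrow.

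Alarmins are proteins with a duty inside the cell that act as danger signals once released. HMGB proteins bend DNA in the nucleus, and S100 proteins are small calcium-binding proteins of the EF-hand type that work mostly as dimers; outside the cell, several of them bind RAGE, a receptor of the immunoglobulin superfamily whose signalling leads to NF-kappaB and MAP kinases. RAGE is best known from alveolar epithelium of the lung, and in bone it has been studied in osteoclasts and osteoblasts.

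RAGE itself was not detected in these osteoblast libraries, and the alarmin counts came almost wholly from S100b, Hmgb2 and Hmgb1. These 3 genes held 728 of the 780 counts of the whole set, or 93.3%. Hmgb3 was present in every library at low counts, and the 5 S100a genes together had 17 counts in 7 libraries. Of the 3 members tested between tumor-bearing and tumor-free mice, 0 passed, against 0% of all 2495 (Benjamini-Hochberg adjusted p under 0.05 in edgeR), while 67 genes had an unadjusted p under 0.05; DESeq2 called 0 genes and had 49. Hmgb2 had the largest difference of the 3 members tested, with means of 159 CPM in tumor-bearing and 386 CPM in tumor-free mice (CPM is the count scaled to a library of 1000000), and its level in tumor-free mice was high in 2 of 3 libraries.

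**Figure D1:**
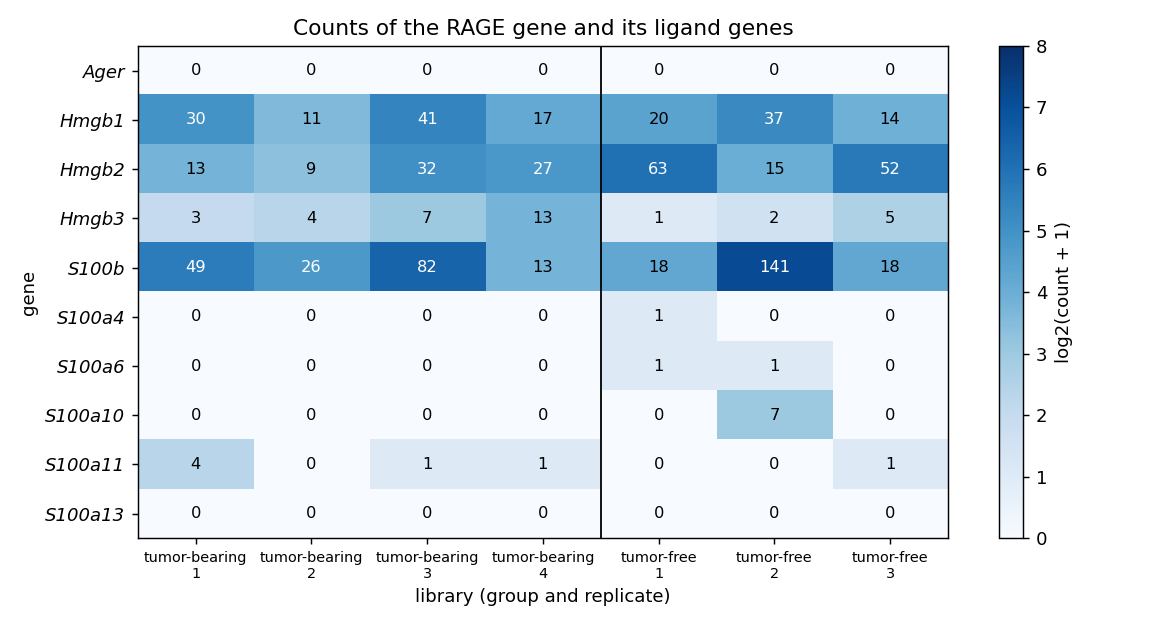
Deposited counts of the 10 genes (rows) in the 7 libraries (columns, tumor-bearing left of the line and tumor-free right of it); the colour is log2(count + 1) and the number is the count. S100b reaches 141 counts in tumor-free replicate 2, while Ager and S100a13 are at 0 throughout.

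The libraries were shallow, with 77127 to 169774 counts and 6044 to 9273 genes detected, so that a gene with 0 counts in 1 library could still have up to 3 counts, or 17.7 to 38.9 CPM, by counting error alone. Osteoblast matrix and lineage markers were present, all 10 of 10 listed with a count, led by Col1a1 with 23 to 96 counts. Some of them rested on few counts, with 4 in all for Sp7 and 5 for Bglap2. Over all 23725 gene IDs, 10381 had 0 counts in every library. The osteocalcin gene Bglap, whose promoter drives the reporter, had only 0 to 2 counts per library. Defining markers of other cells were at or near 0 only in part. Of the endothelial markers 5 of 6 had 0 counts, as did 7 of 13 neutrophil and 6 of 10 monocyte and macrophage markers. Cxcr2, however, had 143 to 229 counts, Csf3r 62 to 127, Mmp8 2 to 53 and Csf1r 8 to 24. All 10 chondrocyte markers, led by Sox9 with 41 to 166 counts, and all 7 erythroid markers among the gene IDs had a count.

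Stretches rich in A, a feature that the choice of genes did not use, occur in the transcripts of the 3 members tested. In Hmgb1 and Hmgb2 they were found only at the looser of the 2 settings below. Libraries of this kind start from an oligo-dT primer, which pairs with poly(A) tails and can also pair with A-rich stretches inside a transcript. With a window of 12 bases of which 11 or more are A, and the final 100 bases not searched, only S100b among the 10 members held such a window in its longest GENCODE transcript; at 10 A in 12 bases Hmgb1 and Hmgb2 held 2 each and the other 7 members none. At 10 A in 12 bases the feature is common: 8625 of 19946 protein-coding genes held a window, as did 1509 of the 2196 tested among them. The windows are shown since S100b, Hmgb1 and Hmgb2 carry nearly all counts of the set. Each is written 5′ to 3′ on the transcript strand, with the window in capitals and neighbouring bases in lower case.

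S100b, 3′ UTR, chr10:76260071-76260099, + strand: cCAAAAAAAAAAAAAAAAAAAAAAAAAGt
Hmgb1, 3′ UTR, chr5:149048645-149048673, - strand: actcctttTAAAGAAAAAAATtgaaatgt
Hmgb1, 3′ UTR, chr5:149048276-149048305, - strand: ctgtaattGCAAAAAAAAAATTgcggctgt
Hmgb2, coding part, chr8:57513163-57513192, + strand: taagaaaggAAAGAAAAAAGAccccaatgc
Hmgb2, 3′ UTR, chr8:57514376-57514404, + strand: ttatgctAGCAAAAAAAAAACTtcatagg

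The S100b window is 27 bases long with 25 A and lies 1061 bases before the end of the transcript, within the stretch that overlaps Dip2a. The coordinates are those of the printed bases in mm10. Whether any count came from such a window was not tested, since the files give counts per gene and not positions.

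Ager (Entrez 11596, chromosome 17, 34597460 to 34600937, mm10) had 0 counts in each of the 7 libraries. Pooled over a group, 0 counts allow a level of up to 3 counts, or 6.16 CPM in tumor-bearing and 8.73 CPM in tumor-free mice, by counting error alone. Its longest GENCODE transcript has 1876 bases. Of the 4 other markers listed for alveolar type 1 cells, the lung cell type in which RAGE is most abundant, Cldn18, Rtkn2 and Hopx had counts in every library and Aqp5 had 0; they summed to 850 to 1583 CPM with and 1265 to 1673 CPM without a tumor. Their part was not tested.

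S100b (Entrez 20203, chromosome 10, 76253836 to 76261319), which encodes a calcium sensor best known from astrocytes and Schwann cells and also found in chondrocytes and fat cells, had the most counts of the set, 347. The tumor-bearing replicates 1 to 4 had 672, 273, 461 and 88.7 CPM, and the tumor-free replicates 1 to 3 had 175, 1197 and 145 CPM. Tumor-free replicate 2 stood above all other libraries and held 141 of the counts, or 40.6%; the other tumor-free libraries lay below 3 of the 4 tumor-bearing ones, and the groups overlapped. The highest library stood 13.5-fold above the lowest. The 23-week mice, 1 in each group, were the 2 lowest libraries for S100b; age was a term in the model.

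The mean level of S100b was 374 ± 250.3 CPM with (SD, n = 4) and 506 ± 599 CPM without a tumor (SD, n = 3). The log2 fold change was -0.59 (SE 0.62, 95% interval -2.06 to 0.88; edgeR's quasi-likelihood test, adjusted p = 0.990). Its sign rested on 1 library: without tumor-free replicate 2 it was 0.61, and without tumor-free replicate 1 it was -1.17.

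**Figure D2:**
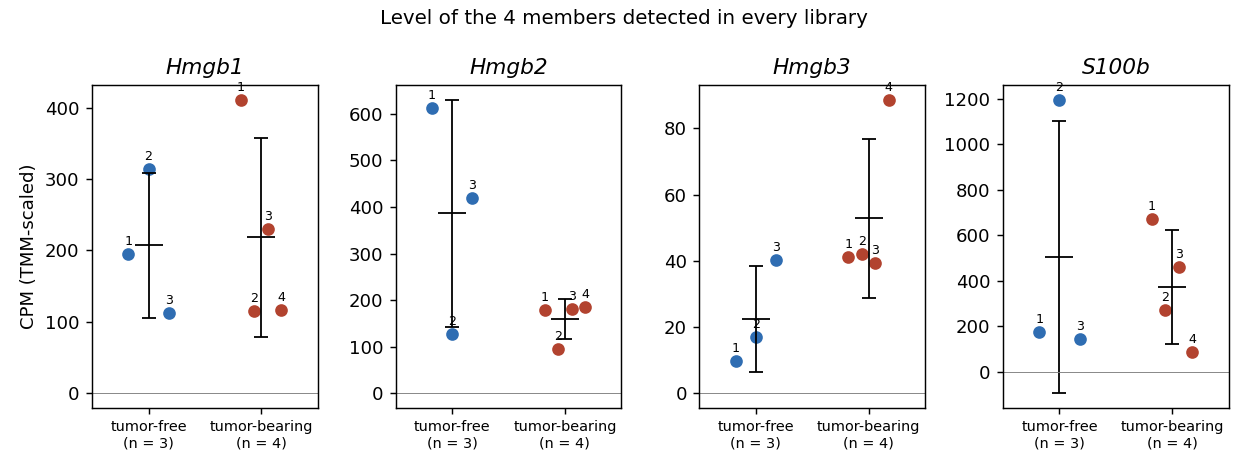
Level in CPM on TMM-scaled library sizes of the 4 members with counts in every library, by group; each point is a mouse with its replicate number, and the bars are the mean and SD. For S100b, tumor-free replicate 2 lies at 1197 CPM and the other tumor-free mice at 175 and 145 CPM; each panel has its own scale.

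Markers of other cells in which S100b is found are given beside it. Of the Schwann cell genes, Mbp and Ngfr had 25 to 51 and 15 to 42 counts, and Sox10 and Gfra3 had 0 everywhere. Chondrocyte markers, all 10 with a count, summed to 672 to 2943 CPM with and 911 to 1177 CPM without a tumor. Their highest library was tumor-bearing replicate 2, with 92 counts of the cartilage collagen gene Col2a1, a library in which S100b had 26 counts. Of 6 fat cell markers, Adipoq, Plin1, Cfd and Fabp4 were at 0, Pparg had 1 count in all, and Cidec had 2, 1 of them in tumor-free replicate 2; the list summed to 0 to 11.2 CPM with and 0 to 8.49 CPM without a tumor. The part of these cells in the S100b counts was not tested.

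The 3′ part of S100b overlaps the last part of Dip2a on the opposite strand over 1891 bases, and the sources used here do not give the strand setting, so reads from the overlap could belong to either. Dip2a had 0 to 7 counts per library, with 5 in the library where S100b had 141.

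Hmgb1 (Entrez 15289, chromosome 5, 149046702 to 149053057), the nuclear protein that is the best studied RAGE ligand and leaves dying or activated cells, had 170 counts. Its levels in tumor-bearing replicates 1 to 4 were 411, 116, 230.3 and 116 CPM, and in tumor-free replicates 1 to 3 they were 195, 314 and 113 CPM. High and low libraries occurred in both groups, and the tumor-free range lay almost entirely within the tumor-bearing one. The mean was 218 ± 139.6 CPM with (SD, n = 4) and 207 ± 101 CPM without a tumor (SD, n = 3), with a log2 fold change of -0.03 (SE 0.43, 95% interval -1.02 to 0.96; edgeR, adjusted p = 0.997). The spread between mice thus left a wide interval around a difference near 0.

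Hmgb1 has many processed copies in the mouse genome. Of the 25-base stretches of its longest transcript, 44.7% also occur in transcripts of other genes, though 0% of those in its last 500 bases do. RefSeq lists 14 pseudogenes named after members of the set, and 1 of them, Hmgb1-rs17, was among the gene IDs. It had 4, 8, 34 and 14 counts in tumor-bearing replicates 1 to 4 and 6, 15 and 12 counts in tumor-free replicates 1 to 3, and its log2 fold change was 0.27 (SE 0.48; edgeR, adjusted p = 0.990). For Hmgb2 the share was 27.3% over the whole transcript and 9.24% in its last 500 bases, and for Hmgb3 it was 47.8% and 20.4%. The counts of Hmgb1, Hmgb2 and Hmgb3 are uncertain to the extent that reads were split with copies or with other genes that share sequence.

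Hmgb2 (Entrez 97165, chromosome 8, 57511843 to 57515999), the family member that marks dividing and haematopoietic cells, had 211 counts. Tumor-bearing replicates 1 to 4 had 178, 94.6, 179.8 and 184 CPM, and tumor-free replicates 1 to 3 had 613, 127 and 419 CPM. Tumor-free replicates 1 and 3 lay above all tumor-bearing libraries, but tumor-free replicate 2 lay below 3 of the 4, so the groups overlapped. The same tumor-free replicate 2 was the library with the most S100b.

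The mean of Hmgb2 was 159 ± 43.2 CPM with (SD, n = 4) and 386 ± 244 CPM without a tumor (SD, n = 3). The log2 fold change was -1.23 (SE 0.52, 95% interval -2.45 to -0.0069), with an unadjusted p of 0.0491 in edgeR's quasi-likelihood test, but it did not pass over all genes tested (adjusted p = 0.990). Of the 2495 genes tested, 2.69% had an unadjusted p under 0.05, 1.68% with a lower level in tumor-bearing mice, and Hmgb2 ranked 67 by p. It was the only member tested whose log2 fold change lay below -1, as 2.57% of the genes tested did. The size of the difference rested on single tumor-free libraries: without replicate 1 the log2 fold change was -0.43, and without replicate 2 it was -1.70 (adjusted p = 0.823).

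Within the 31-week mice, 3 with and 2 without a tumor, the log2 fold change of Hmgb2 was -1.28, with an unadjusted p of 0.115 and an adjusted p of 0.996 in edgeR. The 23-week mice, 1 in each group, stood at 184 CPM (tumor-bearing) and 419 CPM (tumor-free), which gives no test. The corresponding log2 fold changes in the 31-week mice were -0.59 for S100b and -0.08 for Hmgb1.

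**Figure D3:**
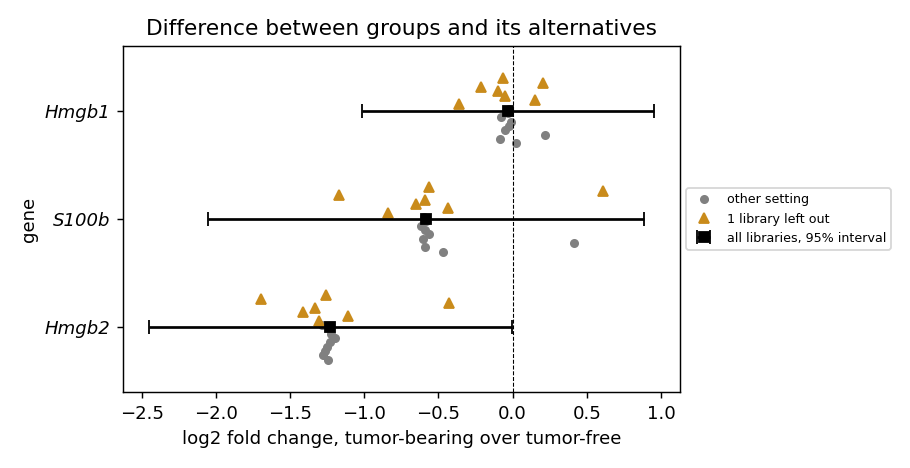
Log2 fold change (tumor-bearing over tumor-free) of the 3 members tested: black squares with bars are the fit on all libraries with its 95% interval, triangles leave out 1 library each and grey points are the other settings. Hmgb2 stays below 0 at -1.70 to -0.43, while S100b and Hmgb1 lie on both sides of 0.

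Genes of dividing cells were read beside Hmgb2. Of 28 listed, 24 had a count and 5 could be tested; 0 passed in either direction, with a median log2 fold change of 0.01 against 0.04 over all genes tested. Ube2c, which drives the exit from mitosis, had 51 to 90 counts, and Cenpf, a kinetochore protein, had 50 to 118, with log2 fold changes of 0.01 and 0.38. Tyms, which makes thymidylate, and the replication helicase subunit Mcm5 had log2 fold changes of 0.12 and -0.20. Other genes of dividing cells were sparse: Mki67 had 1 to 12 counts per library, Top2a 0 to 5 and Pcna 0 to 1, and Aurka and Plk1 had 0 everywhere. Most counts of the list lay on Cenpf, Ube2c and Tyms, with 568, 510 and 379 in all, so its sum mainly reflects these genes. The summed level of the list was 2197 to 2387 CPM with and 1877 to 2474 CPM without a tumor. Tumor-free replicate 1, the library highest in Hmgb2, had the lowest sum, and tumor-free replicate 3, the next highest in Hmgb2, had the highest sum.

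Erythroid transcripts, none of them abundant enough to test, had lower sums in the tumor-bearing libraries. The erythroid markers summed to 68.2 to 110 CPM in tumor-bearing and 127 to 195 CPM in tumor-free mice, without overlap. Tumor-free replicate 1 was the highest. For every other pathway or marker list read here, the sums of the groups overlapped. Among single genes tested, the groups did not overlap for 3.53%, counting both directions, which is a share of genes and not of lists. The erythroid sums rest on 8 to 20 counts per library, most of them on the haemoglobin genes Hba-a2, Hbb-bs and Hbb-bt. Alas2 and Klf1, which are expressed in erythroid precursors, had 0 to 1 and 0 to 2 counts. The part of erythroid cells in the Hmgb2 values was not tested. In sorted bulk cells, fewer cells of a type and less RNA per cell cannot be told apart.

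Hmgb3 (Entrez 15354, chromosome X, 71555917 to 71560673), which is mainly known from haematopoietic progenitors and the embryo, had 35 counts and was not tested. Counts in tumor-bearing replicates 1 to 4 were 3, 4, 7 and 13, and in tumor-free replicates 1 to 3 they were 1, 2 and 5. On the CPM scale this was 52.8 ± 23.9 with (SD, n = 4) and 22.3 ± 15.97 without a tumor (SD, n = 3), and tumor-free replicate 3 at 40.3 CPM lay within the tumor-bearing range of 39.3 to 88.7 CPM. With no filter on low counts the fitted log2 fold change was 1.36, a value that rests on 27 counts against 8 and is given without a test.

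The 5 S100a genes lie on chromosome 3 in mm10, and all were close to or at 0. S100a11 (93520496 to 93526288), a partner of annexin A1, had 4 counts in tumor-bearing replicate 1 and 1 each in tumor-bearing replicates 3 and 4 and tumor-free replicate 3. S100a10 (93555117 to 93564645), which pairs with annexin A2 at the membrane, had 7 counts, all in tumor-free replicate 2. S100a6 (90612894 to 90614414), also called calcyclin, had 1 count in each of tumor-free replicates 1 and 2. S100a4 (90603770 to 90606045), known as metastasin or fibroblast-specific protein, had 1 count, in tumor-free replicate 1. S100a13 (90514233 to 90524581), which helps export FGF1 from the cell, had 0 counts everywhere, and its overlapping neighbour S100a1 on the opposite strand also had 0.

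S100a4, S100a6 and S100a10 thus had no count in any tumor-bearing library and 1 to 7 in the tumor-free ones, counts too few to compare. Of the 25-base stretches at the 3′ end of S100a11, 51.9% occur in transcripts of other genes, so its count is uncertain. For S100a4 the share was 58.6%, all with Gm42674, which overlaps it on the same strand over 2116 bases, so reads there could belong to either. For S100a6 and S100a13 this share was 0%.

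The order of the levels was S100b, Hmgb2, Hmgb1, Hmgb3, with means over the 7 libraries of 430.3, 257, 214 and 39.7 CPM. Per kilobase of the longest transcript the order was the same, with 289.9, 97.6, 75.2 and 22.8 CPM per kilobase, although reads from 3′ ends do not grow with length. The ranges of S100b, Hmgb2 and Hmgb1 over the mice overlapped, while the highest Hmgb3 library, at 88.7 CPM, lay below the lowest Hmgb1 library, at 113 CPM. Hmgb2 had more counts than Hmgb1 in tumor-bearing replicate 4 and tumor-free replicates 1 and 3, and fewer in the other 4 libraries.

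The set as a whole took 0.0502% to 0.165% of the counts of a library. The lowest share was that of tumor-bearing replicate 4 (exact binomial 95% interval 0.0392% to 0.0633%, counting error only) and the highest that of tumor-free replicate 2 (0.143% to 0.189%). Without S100b the shares were 0.0244% to 0.0842%, lowest in tumor-bearing replicate 2 and highest in tumor-free replicate 1. The tumor-free range with all members, 0.0759% to 0.165%, overlapped the tumor-bearing range of 0.0502% to 0.128%.

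Counts dominated by 1 library were read against all genes. Over the 4445 genes with at least 20 counts, the highest library held a median of 25.5% of a gene's counts. S100b, at 40.6%, stood above the median of 22.5% for the 349 genes with a like total of 278 to 433 counts, and 9.46% of those genes had a share as high. The shares of Hmgb2 (29.9%) and Hmgb3 (37.1%) were reached by 24.2% and 18.5% of genes with like totals, and that of Hmgb1 (24.1%) by 49.2%.

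**Figure D4:**
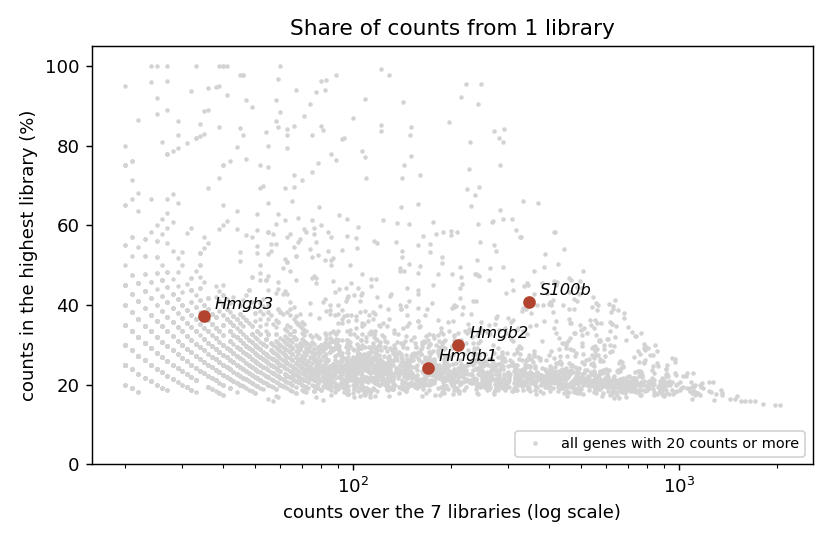
Share of a gene's counts that came from its highest library (vertical axis, %) against its counts over the 7 libraries (horizontal, log scale); grey points are the 4445 genes with at least 20 counts and red points the 4 members. S100b lies at 40.6% and Hmgb1 at 24.1%, near the median of all genes.

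Among themselves, S100b and Hmgb1 were high in the same libraries (tumor-bearing replicates 1 and 3 and tumor-free replicate 2), and Hmgb2 was not. Over the 7 libraries Pearson's r of the log2 CPM was 0.84 for S100b with Hmgb1, -0.49 for S100b with Hmgb2 and -0.15 for Hmgb1 with Hmgb2, given as a description over libraries that differ in depth. The tested genes whose pattern was most like that of S100b were A530088E08Rik (r = 0.98), Sox2ot (0.95) and Cd300lf (0.94). For Hmgb1 they included Pdcd4 (0.98) and Cnnm4 (0.97), and for Hmgb2 they were Gxylt1 (0.92), Asap3 (0.90) and Khsrp (0.88). With 7 libraries and 2495 genes, some genes will have a high r with any pattern.

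The members also differed in length. The longest transcripts of Hmgb1, Hmgb2 and S100b have 2838, 2628 and 1484 bases, and those of the 5 S100a genes 498 to 783 bases. Over all 19946 protein-coding genes with a transcript, 40.4% had 0 counts in every library; among the 810 genes with transcripts under 800 bases 74.6% did, and 0.988% of them could be tested. From 800 bases to just under 3000 the share at 0 was 57.0% without and 37.9% with a window of at least 10 A in 12 bases. The 5 S100a members belong by length to a class in which most genes had no count, although of the 5 only S100a13 had none. The part of length in their low counts was not tested. Ager and Hmgb3, with 1876 and 1743 bases and no window, fall in the middle class, where 57.0% of genes were at 0. Gapdh, an abundant housekeeping transcript, had 2 to 15 counts in the same libraries, and Actb 79 to 258.

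**Figure D5:**
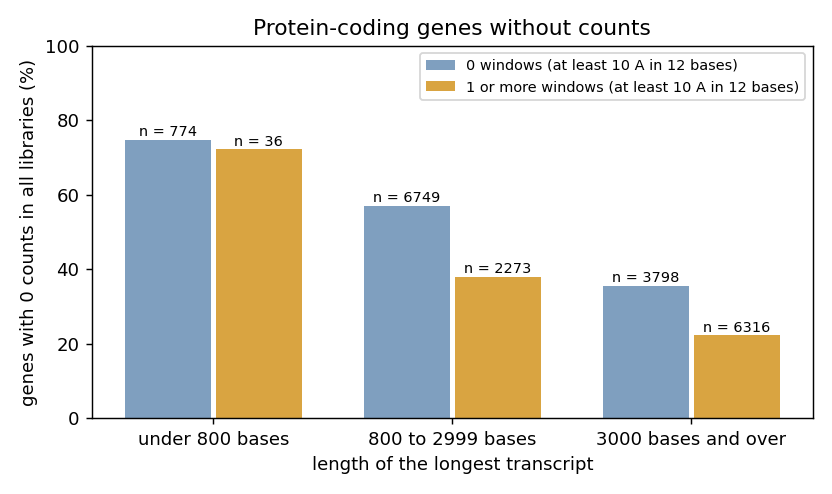
Share of protein-coding genes with 0 counts in all 7 libraries (vertical axis, %) by the length of the longest transcript, without (blue) and with (yellow) a window of at least 10 A in 12 bases; n is the number of genes. Genes with transcripts under 800 bases, as all 5 S100a members have, were at 0 in 74.7% without and 72.2% with a window.

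Other genes of the same families and of RAGE signalling were mostly too sparse to test, and 0 of those tested passed in either direction. Of the 10 other S100 genes listed, 9 had 0 counts, S100a8 among them, and S100a9, its partner in calprotectin of neutrophils, had 1 count in each of 2 libraries. Of 7 other HMG genes, 5 had a count and 0 were tested. Hmgn5, a nucleosome-binding protein, had 198 counts in tumor-bearing replicate 1 and 1 to 4 in each other library, so that 92.1% of its counts came from 1 mouse. Hmgn1 had 0 to 10 counts, Hmga2 0 to 6 and Hmgn2 0 to 4.

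Of 15 other receptors and partners for alarmins, 13 had a count and 1 could be tested, Itgam, a chain of the leukocyte integrin Mac-1, whose log2 fold change was 0.06 (SE 0.27; edgeR, adjusted p = 0.990). The Toll-like receptor genes Tlr2 and Tlr4 had 0 to 1 and 0 to 5 counts, and Tlr9 and Cd14 had 0. Havcr2, an HMGB1-binding receptor of immune cells, had 1 to 15 counts, Alcam, a relative of RAGE in structure, had 1 to 7, and Ly96, the partner of TLR4, had 1 to 11.

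Of 20 genes for signalling from RAGE and the Toll-like receptors or for RAGE shedding, 19 had a count and 3 were tested, with a median log2 fold change of -0.07. The kinase gene Irak1 averaged 1197 ± 241 CPM over the 4 tumor-bearing libraries and 945 ± 103 CPM (SD) over the 3 tumor-free ones, a log2 fold change of 0.33 (SE 0.22). The adaptor Tirap (-0.07, SE 0.22) and the NF-kappaB inhibitor Nfkbia (-0.10, SE 0.29) lay close to 0. Diaph1, which binds the cytoplasmic tail of RAGE, had a single count in all, and Rela had 0.

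Of 12 partners of S100 proteins, 9 had a count and 2 were tested. Fgf1, the growth factor that S100a13 helps to export, had 104 ± 15.5 CPM with (SD, n = 4) and 64.3 ± 14.4 CPM without a tumor (SD, n = 3), with a log2 fold change of 0.66 (SE 0.31; edgeR, unadjusted p = 0.0634, adjusted p = 0.990). The 4 tumor-bearing libraries lay above the 3 tumor-free ones, without overlap, against the same 3.53% of the genes tested. Ahnak, a scaffold that binds S100a10 with annexin A2, had a log2 fold change of -0.31 (SE 0.44). Anxa2 itself had 2 counts, in tumor-bearing replicate 4, Anxa1 had 0 to 1, and Anxa5 and Anxa6 had 0.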

How the data were processed

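Transcript 3′ ends were counted per gene in 7 libraries, 1 per mouse (tumor-bearing n = 4, tumor-free n = 3), by a CEL-Seq type protocol with molecular identifiers, per the labels' protocols. The deposited values are whole counts per Entrez gene ID. The submitters' processing notes name TopHat2 2.0.10, TopHat, SAMtools and the mm10 build; the sources used here do not give the counting program, annotation, strand setting or collapsing of identifiers. Symbols came from RefSeq (GRCm38.p6) and named 23666 of the 23725 IDs; transcripts came from GENCODE vM21.

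Genes were filtered with filterByExpr (minimum count 10, minimum total 15), scaled by TMM and fitted with edgeR 4.0.16 in R 4.3.3 (robust quasi-likelihood, age and tumor status as terms, all 7 libraries), with Benjamini-Hochberg adjustment across the 2495 genes tested and a threshold of 0.05. CPM is the count scaled to a TMM-scaled total of 1000000. The fit was tested on simulated data. The members and lists were chosen with earlier results of these data known. All members are named, as are, from each pathway list, up to 4 genes with the most counts and any gene past the threshold, and the 3 tested genes most like each tested member in log2 CPM (prior count 2); further genes, such as Tlr4, Diaph1, Anxa2 and Alas2, were named for their role after their values were seen. Some items are not reported here. Alternatives were DESeq2 1.42.0, other scalings and filters, no age term, 31-week mice only, a replicate block and leaving out each library. Totals were 77127 to 169774 counts per library. The exact binomial intervals of the summed shares cover counting error only. The intervals of log2 fold changes come from the edgeR fit and also take in the spread between mice.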

Additional observations from a re-analysis of the deposited data

Results flagged for a closer look

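The members and the up to 4 most counted genes of each pathway list were screened in the 4 tumor-bearing libraries. Genes named only for their role, such as Anxa2 and Diaph1, were not screened. The ratio below is the gap of the highest or lowest library to its nearest neighbour, as a share of the group's range. For 5 of the genes screened it exceeded the 95% critical value of Dixon's test for 4 samples. Genes with 0 counts in all 4 tumor-bearing libraries could not be flagged. Chance flags about 1 in 20 groups if the values are spread normally, which does not hold for counts as low as those of S100a11. The tumor-free group of 3 was not tested in this way. Hmgb2 was lowest in tumor-bearing replicate 2 (ratio 0.934), at 94.6 CPM against 178 to 184 CPM in the others. Hmgb3 was highest in tumor-bearing replicate 4 (0.945), with 13 counts. S100a11 was highest in tumor-bearing replicate 1 (0.876), with 4 counts. Hmgn5 was highest in tumor-bearing replicate 1 (0.994), with 198 counts. Ly96 was lowest in tumor-bearing replicate 2 (0.830), with 2 counts.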

How the results depend on the processing

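In each of the 16 alternatives, 0 genes and 0 members passed the adjusted threshold. The log2 fold change of Hmgb2 was below 0 in 16 of 16, and lay between -1.70 and -0.43 when 1 library was left out. That of S100b was below 0 in 14 of 16; it was 0.61 without tumor-free replicate 2 and 0.41 with the replicate block, and leaving out 1 library gave -1.17 to 0.61. That of Hmgb1 was below 0 in 12 of 16; it was 0.020 with no age term, 0.22 with the replicate block, 0.15 without tumor-bearing replicate 2 and 0.21 without tumor-free replicate 2, and leaving out 1 library gave -0.36 to 0.21. The cause was not tested. Same-numbered samples had correlations of -0.208, -0.121 and -0.145 of their deviations from the group means. These show no likeness by number, but so few libraries cannot settle whether the numbers pair the samples. Number 3 joins a 31-week tumor-bearing mouse with a 23-week tumor-free one, so the replicate block mixes ages. The block fit left out tumor-bearing replicate 4 and the age term. It called 0 of 2281 genes, and 37 had an unadjusted p under 0.05 in edgeR. Without the low count filter 13344 genes were tested and 456 had an unadjusted p under 0.05, against 67 of 2495. The depth, at which 3 counts are 17.7 to 38.9 CPM in a library, limits what can be said of Ager, Hmgb3 and the S100a genes.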
